A study of Mus musculus with 4 samples.

Results

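The genes described here encode the proteins of the mitochondrial ribosome, taken as every row of the count table whose symbol is Mrpl or Mrps followed by a number and at most 1 letter from a to c. This name pattern picked 78 of 16846 rows by symbol alone. Of the 78 members, 51 belong to the large subunit and 26 to the small subunit of the ribosome. The remaining member, Mrps36, carries a ribosomal name but is now assigned to the alpha-ketoglutarate dehydrogenase complex. Mrps18a and Mrps30 carry small subunit names but are large subunit proteins, and were counted there. All 78 members passed the filter on low counts, which left 12115 genes for testing.

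Mitochondrial ribosomes translate the few messenger RNAs of the mitochondrial genome, which encode core subunits of the respiratory chain and ATP synthase. Their RNA is made inside the organelle, but all of their proteins are encoded in the nucleus, made in the cytosol and imported. Some of these proteins have counterparts in bacterial ribosomes (46 members by the classification used here), while others arose with mitochondria (31 members).

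The cells were HT22, an immortalised mouse line of hippocampal origin, in 4 groups with 2 libraries each. The long noncoding RNA Ntoco was targeted by an shRNA in the Ntoco knockdown group, whose control is a group given a control shRNA. An Ntoco expression construct was given to the Ntoco overexpression group, whose control is a group given the empty vector. The labels list 1 sample per group, but each group has 2 numbered columns of values, and these were treated as separate libraries. Nothing says that they are separate cultures, so p-values measure only the spread between them, which may be technical. The column names write the target as AK, which no label explains, so the columns were matched to the Ntoco groups by role (control or targeting shRNA, vector or overexpression). A label marks the construct Lv and the column names call the vector pcDNA, so whether a virus or a plasmid delivered it is uncertain, as is whether any group is a single clone.

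Library totals ran from 18452588 to 19859041 counts, and the members had between 289 and 3292 counts in any library. No check of the targeted RNA was made, as 0 rows carried the name Ntoco. Of 10 neuron markers 6 had values, and 0 of these averaged above 1 FPKM (fragments scaled by gene length and library total). Syp was the highest at 0.322 FPKM, while of 6 fibroblast markers Col1a2 and Col1a1 averaged 400.3 and 87.0 FPKM and Pdgfra 6.34 FPKM. The other fibroblast markers were at or near 0, with Col3a1 at 0.128 and Dcn at 0.00306 FPKM and Lum at 0. The summed level of these markers, nearly all of it Col1a2 and Col1a1, was 917 and 285 FPKM in the knockdown libraries, 628 and 647 in the shRNA control libraries, 427 and 385 in the overexpression libraries and 235 and 428 in the vector libraries. Its part in the members' values was not tested. In bulk RNA such as this, fewer cells of a type and less RNA per cell cannot be told apart.

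The members lay on 17 chromosomes of GRCm38.p6, with 11 on chromosome 11 and 8 on chromosome 17. Of the 78, 69 had a promoter entry in the RefSeq table of that build, a window of 300 bases that begins 250 before a transcript's start. The 8 members with the smallest overexpression p-values are shown here because the largest differences between groups were among them. For each, 30 bases around 1 motif match are printed 5′ to 3′ on the gene's strand, with the match in capitals. Positions are counted from the start in the table, which for Mrpl14, Mrpl36 and Mrpl18 lies inside the outermost annotated ends of the gene.
Mrpl35 (chr6:71823743-71823772, minus strand, YY1 match at +24 to +31): aggcaggctgcAAGATGGCggcttccatct
Mrpl14 (chr17:45686343-45686372, plus strand, NRF1 match at +5 to +14): aacccctggcGCGCAGGCGCagcgtgcggg
Mrpl36 (chr13:73330968-73330997, plus strand, YY1 match at -30 to -23, reverse): cgtgaccttacGCCATCTTtcttcctggcg
Mrpl18 (chr17:12916312-12916341, minus strand, ETS match at -240 to -234): actgaaaacgCCGGAAGtagggggctgcgg
Mrpl30 (chr1:37890384-37890413, plus strand, NRF1 match at -83 to -74, reverse): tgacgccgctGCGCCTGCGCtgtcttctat
Mrpl42 (chr10:95501904-95501933, minus strand, YY1 match at +28 to +35): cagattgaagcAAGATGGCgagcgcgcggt
Mrps22 (chr9:98601673-98601702, minus strand, ETS match at -11 to -5): aaacctctcgagCCGGAAGttgctctatcg
Mrps33 (chr6:39810887-39810916, minus strand, ETS match at +39 to +45, reverse): aagtaaaggggggcgggcCTTCCGGggacg

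6 motifs were searched on both strands, and their matches overlapped each other in 2 member promoters. NRF1 and ETS factors such as GABP are known regulators of nuclear genes for mitochondrial proteins. The NRF1 motif, GCGCA then any base then GCGC, was in 13 of the 69 member promoters (18.8%), against 4.78% of all 27025 promoters in the table. The ETS motif CCGGAAG was in 25 (36.2%, against 9.12%) and the YY1 motif AAGATGGC in 12 (17.4%, against 2.88%). These 3 motifs were therefore held by a larger share of member promoters than of all promoters. All members are expressed here, whereas the comparison promoters were not limited to the genes tested. The SP1 motif GGGCGG was in 34 (49.3%, against 35.9%), CCAAT in 27 (39.1%, against 37.9%) and the E-box CACGTG in 5 (7.25%, against 7.24%). A match describes the letters of the window and is neither a binding site nor a cause. The median log2 ratio of overexpression to vector was 0.13 in the 13 members with an NRF1 match and 0.23 in the other 56 with an entry. For the other motifs the medians with and without a match were 0.23 and 0.22 (ETS), 0.25 and 0.21 (SP1), 0.23 and 0.22 (CCAAT), 0.25 and 0.21 (YY1), and 0.44 and 0.20 (E-box, 5 members with a match).

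The members were well expressed. Their mean FPKM over the 8 libraries had a median of 35.0, against 9.62 over all genes tested, and 72 of the 78 lay above that. The medians of the large and small subunit members were close, at 34.3 and 35.2 FPKM. On this scale per length, the highest was Mrps21, a small subunit protein with a bacterial counterpart, at 190.5 ± 21.8 FPKM (SD, n = 8 libraries of 4 groups). Mrpl42, a mitochondria-specific large subunit protein, followed at 139 ± 29.2 and Mrpl12 at 138 ± 30.4 FPKM. Mrpl12 is the counterpart of the bacterial stalk protein that recruits translation factors. Mrpl33 had 133 ± 18.2 and Mrpl52 118 ± 16.9 FPKM. These 5 members, with ranges over libraries that overlapped except between Mrps21 and Mrpl52, were the only ones above 100 FPKM.

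At the low end, Mrpl14 had 4.44 ± 1.58 FPKM, Mrps25 5.33 ± 0.397, Mrpl35 6.60 ± 1.48, Mrpl1 8.51 ± 1.76 and Mrpl48 8.76 ± 0.946 FPKM (SD, n = 8). The proteins are used together in 1 particle, yet the highest and lowest of these mRNA levels were 42.9-fold apart. The gene length behind the FPKM moves with this order: it was 510 bases for Mrps21 and 412 for Mrpl52, but 7525 for Mrpl14 and 3695 for Mrpl35. For Mrpl14 the exons annotated in GENCODE M21 hold only 949 bases. Its FPKM may therefore be too low, and its rank and the fold between highest and lowest are uncertain. The part of gene length in the spread was not tested. Of the 3 paralogues of bacterial S18, Mrps18a of the large subunit had 87.0 ± 6.58 FPKM, while Mrps18c and Mrps18b of the small subunit had 61.1 ± 11.2 and 58.6 ± 7.47 FPKM. The ranges of Mrps18b and Mrps18c over libraries overlapped, and so did those of Mrps18a and Mrps18c. Mrpl58, a peptidyl-tRNA hydrolase built into the large subunit, had 59.4 ± 8.80 FPKM. Mrps30 had 44.7 ± 7.77, Mrps36 43.3 ± 8.56 and Mrps12, the counterpart of the bacterial decoding-centre protein S12, 19.6 ± 2.40 FPKM.

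**Figure D1:**
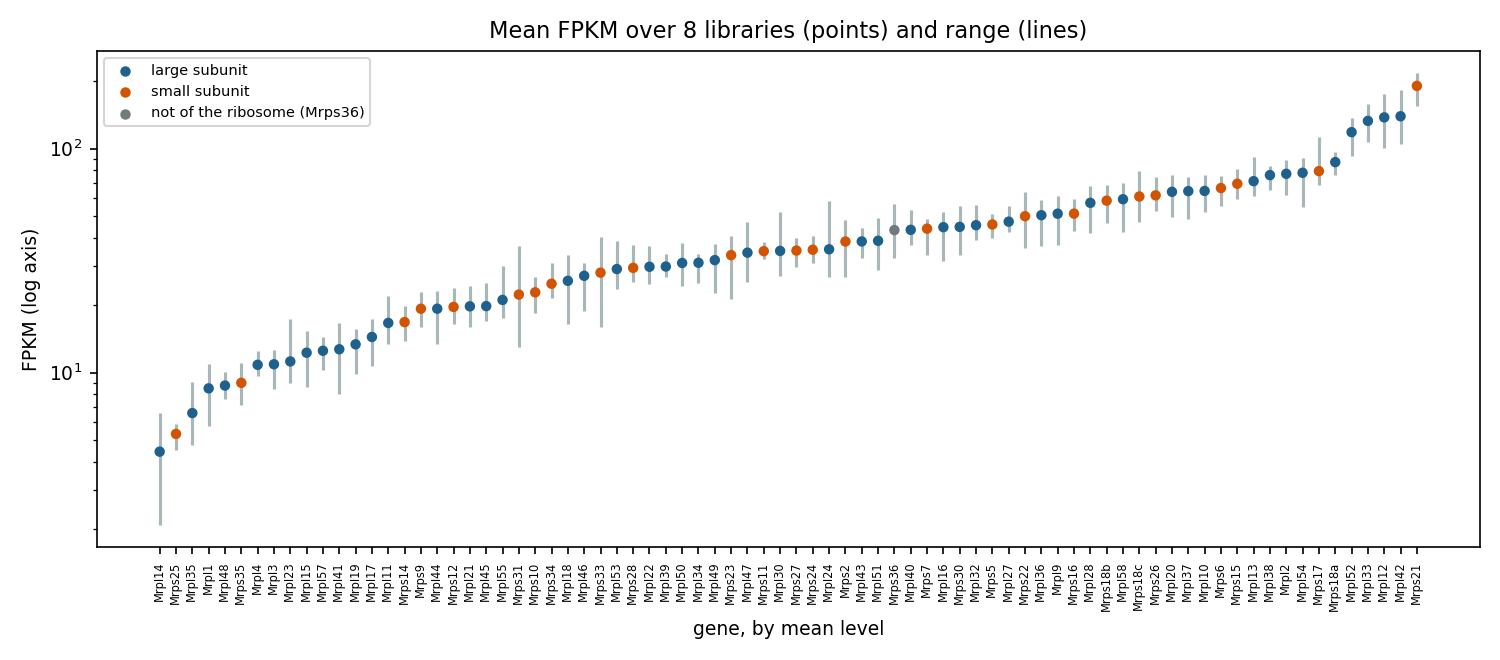
Mean FPKM of each of the 78 members on a log axis, ordered by level, with lines from the lowest to the highest of the 8 libraries and colours for the subunit. Of the members, 67 lie between 10 and 100 FPKM, with Mrps21 highest at 190.5 and Mrpl14 lowest at 4.44.

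The levels varied little between libraries. The highest and lowest of the 8 libraries differed by a median of 0.64 in log2 CPM (counts scaled to library size with TMM factors) per member, against 0.91 per gene over all genes tested. In 73 members (93.6%, against 56.7% of all genes tested) this range stayed under a doubling. The exceptions were Mrps31 with a range of 1.58 (log2), Mrpl14 with 1.54, Mrps33 with 1.27, Mrpl24 with 1.06 and Mrpl30 with 1.04. Within a group, the 2 libraries differed per member by a median of 0.22 (log2) in the knockdown, 0.20 in the shRNA control, 0.12 in the overexpression and 0.17 in the vector group. Over all genes tested these medians were 0.38, 0.24, 0.24 and 0.31 in the same groups. Most members were expressed above the median gene tested, and they were not compared with genes of like level.

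Summed over the 78 members, the level was 4194 and 4318 CPM in the knockdown libraries and 4381 and 3842 in the shRNA control libraries. It was 4898 and 4929 CPM in the overexpression libraries and 4151 and 4232 in the vector libraries. The overexpression libraries were thus the highest 2 of the 8, and the knockdown values lay between the 2 shRNA control values. Relative to the shRNA control mean, the median member stood at 0.29 and 0.25 (log2) in the overexpression libraries and at -0.0002 and 0.05 in the vector libraries. It stood at 0.06 and 0.08 in the knockdown libraries, within the 0.08 and -0.08 of the shRNA controls themselves.

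**Figure D2:**
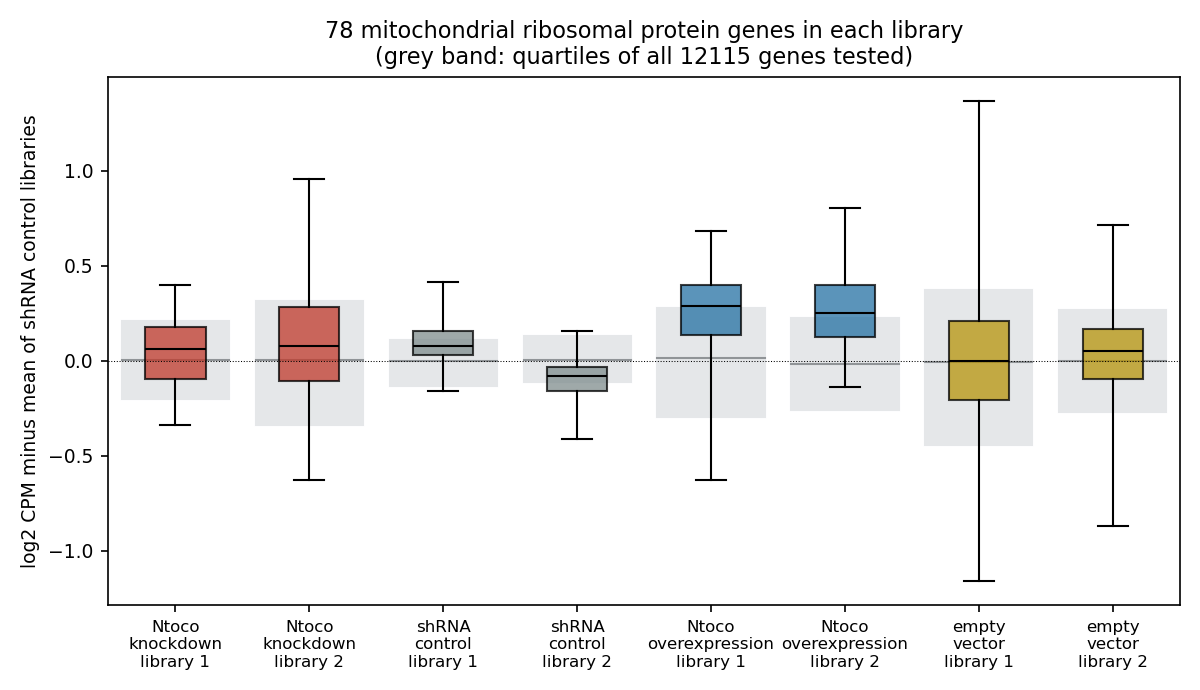
Log2 CPM of the members in each library minus the shRNA control mean, as boxes (quartiles, with whiskers to the lowest and highest member), over grey bands for the quartiles of all genes tested. The members of both overexpression libraries are centred at 0.29 and 0.25, above the other 6 libraries, while all genes are centred near 0 in each library.

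With Ntoco overexpressed, members of both subunits were higher than in the vector libraries, by amounts that were small per gene and did not pass the adjusted test. In edgeR's quasi-likelihood test 0 of the 78 members (background 0%) passed an adjusted p of 0.05, and DESeq2 called 0 members, against 1 gene of all (0.00876%). At an unadjusted p under 0.05 there were 12 members (15.4%, against 7.62% of all genes tested), all of them higher; in that direction the share over all genes was 3.53%. The median log2 ratio was 0.22 over the members and -0.01 over all genes tested, and 69 members (88.5%) had a ratio above 0, against 49.5% of all genes. Both overexpression libraries exceeded both vector libraries in 46 members, 59.0% against a background of 24.1%. Both were below both vector libraries in 1 member, Mrps31, against a background of 23.1%. In the large subunit the median was 0.17, with 28 of 51 members higher in both libraries and 0 lower; in the small subunit it was 0.26, with 17 of 26 higher and 1 lower. Members with a bacterial counterpart had a median of 0.23 (28 of 46 higher), and mitochondria-specific members 0.17 (17 of 31).

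Among the large subunit members, Mrpl35, which has a bacterial counterpart, had 30.5 and 34.1 CPM in the overexpression libraries, against 18.5 and 17.7 CPM in the vector libraries. The log2 ratio was 0.84 (SE 0.20), with an unadjusted p of 0.00298 and an adjusted p of 0.598 in edgeR's quasi-likelihood test, the smallest p of any member. The knockdown and shRNA control libraries lay between these groups, at 23.0 and 22.9 and at 24.8 and 23.7 CPM. Mrpl14, a protein of the face that meets the small subunit, had 40.4 and 41.0 CPM in the overexpression libraries, against 16.5 and 20.3 in the vector libraries (log2 1.14, SE 0.34). This was the widest ratio of any member, and its vector values were the lowest of the 8 libraries, while the shRNA controls had 42.0 and 33.6 CPM, near the overexpression values. The knockdown libraries of Mrpl14 were far apart, at 48.9 and 24.2 CPM, the first of them above both overexpression values. Mrpl18, the counterpart of the bacterial protein that binds the smallest ribosomal RNA, had 82.2 and 76.5 CPM in the overexpression libraries, against 43.1 and 50.1 in the vector libraries (log2 0.77, SE 0.25). Here the overexpression values lay between those of the shRNA controls, 84.3 and 57.6 CPM.

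Mrpl36, another protein with a bacterial counterpart, had 54.2 and 54.2 CPM in the overexpression libraries, against 34.9 and 37.3 in the vector libraries (log2 0.59, SE 0.18). Mrpl30 had 101 and 126 CPM, against 70.6 and 73.8 in the vector libraries (log2 0.65, SE 0.22). Mrpl42 had 128 and 118 CPM, against 75.6 and 85.5 in the vector libraries (log2 0.61, SE 0.25). In these 3 members both overexpression libraries were also above both shRNA control libraries. Mrpl30 stood at 77.0 and 67.2 CPM in the shRNA controls, close to its vector values.

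In the small subunit, Mrps22, a mitochondria-specific protein whose human form is mutated in an inherited defect of oxidative phosphorylation, had 68.2 and 79.6 CPM in the overexpression libraries, against 54.2 and 44.3 in the vector libraries (log2 0.59, SE 0.19). Mrps33, also mitochondria-specific, had 43.7 and 33.7 CPM, against 17.8 and 24.7 in the vector libraries (log2 0.86, SE 0.29). For both, the overexpression values were above those of the other 6 libraries except that knockdown library 1 had 35.4 CPM of Mrps33. Mrps31 had the opposite order, with 31.4 and 37.6 CPM in the overexpression libraries, against 59.5 and 37.7 in the vector libraries (log2 -0.50, SE 0.40). Its second overexpression and second vector values were nearly equal.

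Members singled out by their roles had groups that were separate in some and overlapped in others. Mrpl12, the stalk protein, had 169.6 and 174 CPM in the overexpression libraries, against 103 and 134 in the vector libraries (log2 0.54, SE 0.25), but shRNA control library 1 reached 169 CPM. Mrpl58, the peptidyl-tRNA hydrolase, had 56.5 and 49.98 CPM in the overexpression libraries, against 34.8 and 48.2 in the vector libraries (log2 0.36, SE 0.24). Mrps36, of the dehydrogenase complex, had 41.3 and 33.2 CPM in the overexpression libraries, against 24.4 and 27.4 in the vector libraries (log2 0.52, SE 0.26). In these 3 the groups did not overlap. Among the paralogues of bacterial S18, Mrps18c had 36.8 and 40.8 CPM in the overexpression libraries, against 25.5 and 29.0 in the vector libraries (log2 0.51, SE 0.23), above the other 6 libraries as well. Mrps18a had 73.4 and 83.7 CPM, against 77.0 and 66.8 in the vector libraries (log2 0.13, SE 0.19), and Mrps18b 91.8 and 111 CPM, against 107 and 95.05 in the vector libraries (log2 0.01, SE 0.22). The groups of these 2 paralogues overlapped, as did those of Mrps30, with 78.9 and 89.7 CPM in the overexpression libraries, against 88.8 and 73.4 in the vector libraries. The difference between the paralogues was not tested. The groups of Mrps12 also overlapped, at 21.1 and 20.03 CPM in the overexpression libraries, against 20.1 and 17.4 in the vector libraries (log2 0.14, SE 0.21).

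**Figure D3:**
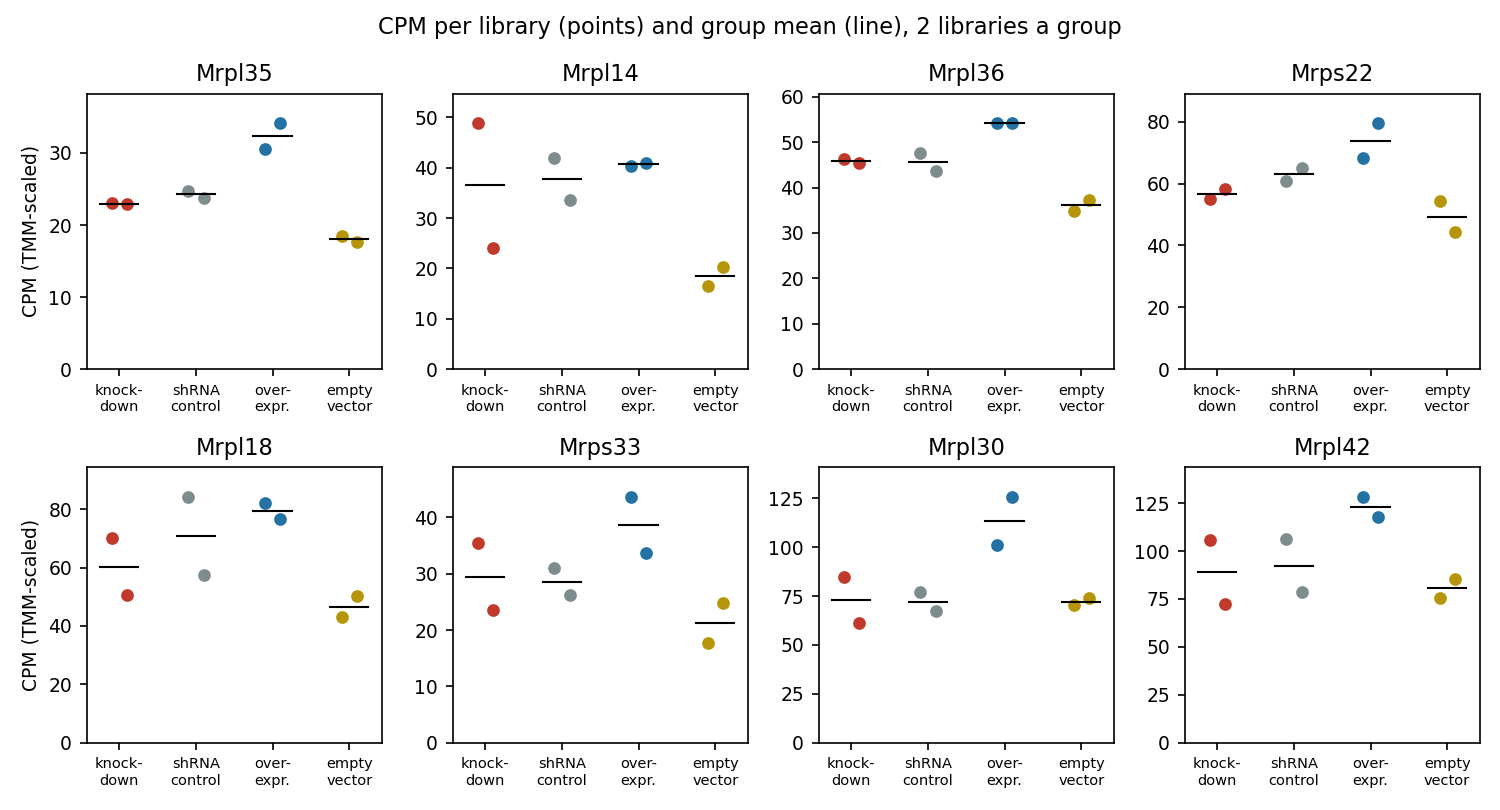
CPM per library of the 8 members with the smallest overexpression p-values, with lines at the group means and the groups from knockdown at the left to vector at the right. In each panel both overexpression points lie above both vector points, and Mrpl14 and Mrpl18 reach similar levels in an shRNA control library.

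As a set, the members did not stand apart between the vector and the shRNA control, with a median log2 ratio of 0.01. Both vector libraries were higher than both shRNA controls in 20 members (25.6%, against 24.6% of all genes tested). They were lower in 13 (16.7%, against 26.5%). Because single members differed, the overexpression ratios were read beside the shRNA control level too. Both overexpression libraries were above all other 6 libraries in 26 members (33.3%, against 5.44% of all genes tested), and below them in 0. Both vector libraries were below all other 6 in 8 members (10.3%, against 6.5%), Mrpl35, Mrpl14, Mrpl36, Mrpl18 and Mrps22 among them. In the overexpression comparison 12 members had an unadjusted p under 0.05 in edgeR's test. Of these, 9 were lower in both vector libraries than in both shRNA controls, against 26.5% of all genes tested. In 8 both overexpression libraries were higher than both shRNA controls, against 23%. The 12 were chosen by their vector and overexpression values, so neither count is independent of that choice. Over all members, overexpression exceeded both shRNA control libraries in 48 members, against a background of 23% of all genes. These libraries come from different control constructs, and the construct and the overexpression cannot be told apart in that last count.

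Gene length moved with the overexpression ratio over the whole table. With all genes tested split into 4 length classes of equal size, the median log2 ratio from the shortest to the longest class was 0.15, 0.05, -0.06 and -0.18. Of the members, 55 lay in the shortest class, with a median of 0.23, against 0.15 in all genes of the class, and 35 of the 55 were higher in both libraries, against 36.8% of all genes of the class. The next class held 13 members with a median of 0.24, against 0.05 in all its genes, and 7 of the 13 were higher in both libraries, against 26.7%. The following class held 4 members (Mrpl1, Mrpl19, Mrpl35 and Mrpl48; median 0.10) and the longest 6 (median 0.12). Mrpl14 is among these 6 by its FPKM length of 7525 bases, although its annotated exons hold only 949. By library, the median of the shortest class minus that of the longest was 0.32 and 0.22 (log2) in the overexpression libraries and -0.05 and -0.02 in the vector libraries. It was 0.11 and 0.10 in the knockdown libraries and 0.09 and -0.09 in the shRNA controls. The part of this length trend in the members' ratios was not tested.

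Some members share sequence or position with other genes, and the strand setting of the counting is not given in the sources used here. Exons of 28 members overlapped exons of an opposite-strand gene (Mrpl24 with Rrnad1 over 594 bases, Mrpl18 with Tcp1 over 141, Mrpl14 with Tmem63b over 106), and exons of 8 overlapped a gene on the same strand. A further check found 18 members with a pseudogene at least 95% identical over 200 bases or more (Mrps33 with Gm5776, Mrpl42 with Gm6419). The counts of these members are uncertain. The 34 members with no overlap on either strand and no such pseudogene had an overexpression median of 0.19, with 19 higher in both libraries and 1 lower. The 44 members with at least 1 of these had 0.24, with 27 higher and 0 lower. Over all genes tested, 24.1% were higher in both overexpression libraries and 23.1% lower.

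With Ntoco knocked down, the members' values were spread around those of the shRNA controls. In edgeR's test 0 of 78 members (background 0%) passed, 0 reached an unadjusted p under 0.05 (all genes 3.12%), and DESeq2 called 0 members, against 15 genes of all (0.124%). The median log2 ratio was 0.04 over the members, with quartiles at -0.03 and 0.18, and 0.01 over all genes tested. Both knockdown libraries were higher than both shRNA controls in 10 members (12.8%, against a background of 15.1%) and lower in 6 (7.69%, against 14.1%), so neither share exceeded the background. The direction of the median rested on the shRNA control libraries: it was 0.16 when library 1 of the shRNA control was left out and -0.05 when library 2 was.

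The 8 members with the smallest knockdown p-values all had an adjusted p of 0.992 in edgeR's quasi-likelihood test. Mrpl24 had 75.4 and 134 CPM in the knockdown libraries, against 64.1 and 79.9 in the shRNA controls (log2 0.54, SE 0.28). Mrpl17 had 96.7 and 110.0 CPM, against 86.3 and 69.3 in the shRNA controls (log2 0.41, SE 0.21). Mrpl24, Mrps17 and Mrpl23 were high in knockdown library 2 alone and their groups overlapped, whereas Mrpl17, Mrpl55, Mrps16 and Mrpl33 were higher in both. Mrps16 had 36.1 and 37.3 CPM in the knockdown libraries, against 28.5 and 30.5 in the shRNA controls (log2 0.32, SE 0.18). Mrpl55 had 22.1 and 29.5 CPM, against 21.2 and 17.5 in the shRNA controls (log2 0.41, SE 0.24). Mrpl12 was the one with a negative ratio, at 123 and 97.1 CPM in the knockdown libraries, against 169 and 114 in the shRNA controls (log2 -0.36, SE 0.25), and its groups overlapped. Mrps17 had 80.5 and 118 CPM in the knockdown libraries, against 81.2 and 73.1 in the shRNA controls, and Mrpl23 17.6 and 30.2, against 16.3 and 17.96 in the shRNA controls. Mrpl33 had 64.4 and 70.8 CPM in the knockdown libraries, against 61.6 and 50.5 in the shRNA controls (log2 0.27, SE 0.19). Mrps12 had 22.8 and 23.7 CPM in the knockdown libraries, above the 20.6 and 17.8 of the shRNA controls and above the other 4 libraries.

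**Figure D4:**
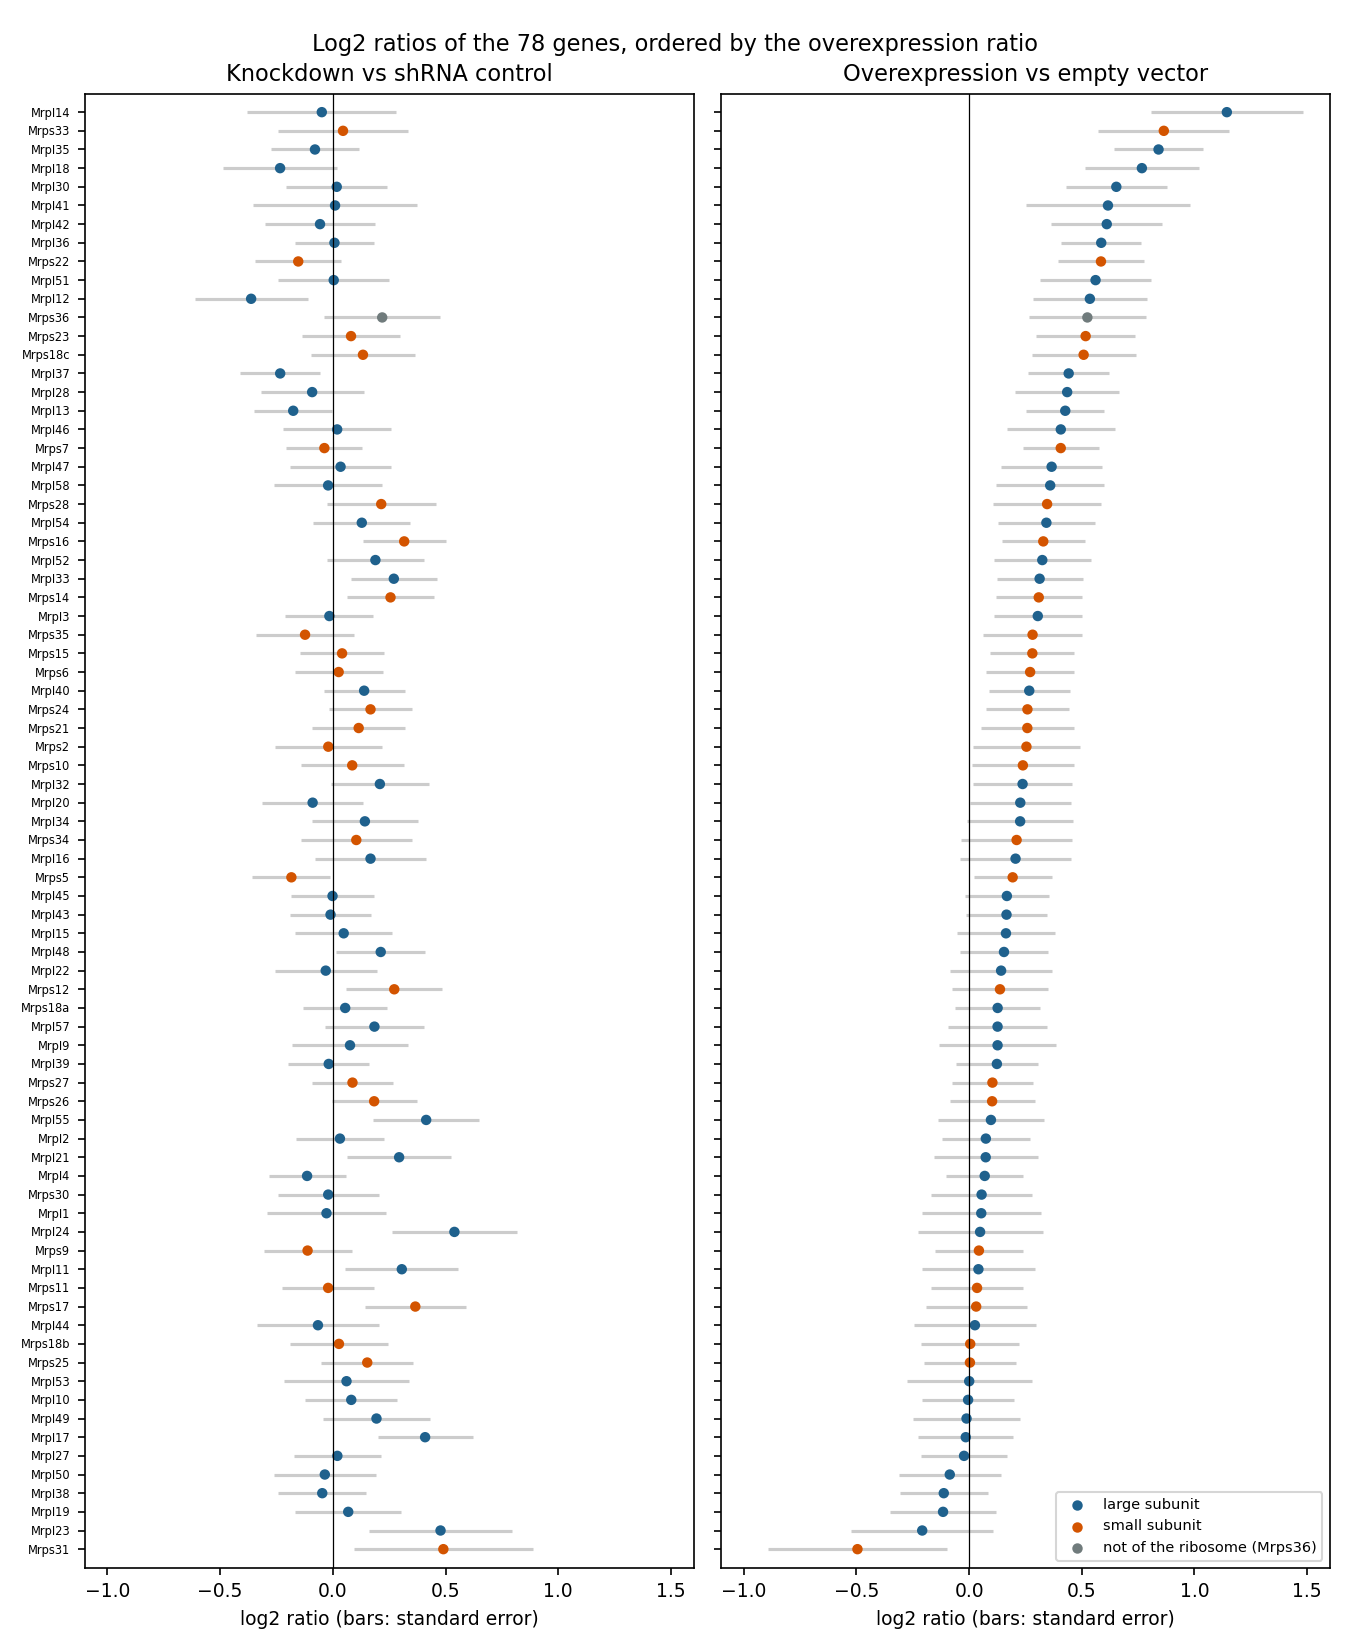
Log2 ratio of each member in the overexpression and knockdown comparisons, with bars for the standard error and members ordered by the overexpression ratio. The members centre at 0.22 with overexpression and at 0.04 with knockdown, and none passed the adjusted test.

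The overexpression effect minus the knockdown effect was tested as its own contrast. In edgeR's test 0 members (background 0%) passed and the smallest adjusted p was 0.65, while DESeq2 called 0 members, against 14 genes of all (0.125%). An unadjusted p under 0.05 was reached by 8 members (10.3%, against 6.92% of all genes), all with a positive difference, the direction of 3.57% of all genes. The 5 members with the smallest p were Mrpl35 (log2 difference 0.92, SE 0.28), Mrpl18 (1.0, SE 0.36), Mrps22 (0.74, SE 0.27), Mrpl37 (0.68, SE 0.25) and Mrpl14 (1.19, SE 0.47). Mrpl37, a mitochondria-specific large subunit protein, had 115 and 108 CPM in the overexpression libraries, against 76.4 and 88.0 in the vector libraries. It had 93.7 and 83.5 CPM in the knockdown libraries, against 108 and 100.1 in the shRNA controls, so its groups did not overlap in either comparison.

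The empty vector was set against the shRNA control to see how the control groups differ; it shares its vector libraries with the overexpression comparison. In edgeR's test 0 members (background 0%) passed, and DESeq2 called 0 members, against 281 genes of all (2.37%). The median log2 ratio of the members was 0.01, against -0.003 over all genes tested, and it was 0.12 when library 1 of the shRNA control was left out and -0.08 when library 2 was. Both vector libraries were higher in 20 members (25.6%, background 24.6%) and lower in 13 (16.7%, background 26.5%). An unadjusted p under 0.05 was reached by 3 members (3.85%, against 12.5% of all genes, 6.1% lower and 6.45% higher). Of these Mrpl14 was lower, at 16.5 and 20.3 CPM in the vector libraries, against 42.0 and 33.6 in the shRNA controls (log2 -1.04, SE 0.34), and so was Mrpl18 (log2 -0.61, SE 0.25). Mrps31 was higher, at 59.5 and 37.7 CPM in the vector libraries, against 20.9 and 24.8 in the shRNA controls (log2 1.09, SE 0.40). Mrpl15, at 105 and 93.6 CPM in the vector libraries, against 82.8 and 60.1 in the shRNA controls (log2 0.47, SE 0.22), and Mrpl19, at 81.5 and 76.2, against 59.7 and 55.1 (log2 0.46, SE 0.24), were also higher in both libraries. So was Mrpl17, at 89.8 and 118 CPM, against 86.3 and 69.3 in the shRNA controls (log2 0.42, SE 0.21). Mrps7, a small subunit protein with a bacterial counterpart, was lower in both, at 61.4 and 63.9 CPM in the vector libraries, against 85.4 and 77.5 in the shRNA controls (log2 -0.38, SE 0.17). Mrpl35 was also lower in both, at 18.5 and 17.7 CPM in the vector libraries, against 24.8 and 23.7 in the shRNA controls (log2 -0.42, SE 0.20).

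Other genes of mitochondrial translation were read from the same fit, where none passed the adjusted test. As background to the counts of lists, 24.1% of all genes tested were higher in both overexpression libraries and 23.1% lower. Of 5 ribosomal subunits outside the name pattern, 4 were higher in both overexpression libraries and 0 lower (median 0.29). They included Aurkaip1 at 0.52 (SE 0.19) and Dap3, a small subunit GTPase, at 0.38 (log2). The factors that act with the ribosome had members on both sides. Of 16 genes listed as translation factors 6 were higher (37.5%) and 3 lower (18.8%), with a median of 0.08, Tufm at 0.79 and Mrrf at 0.42. The lower 3 were Gfm2, Letm1 and Pdf. This list is broad: Letm1, Pdf and Oxa1l are not translation factors in the strict sense. A list of 22 mitochondrial aminoacyl-tRNA synthetases also held the amidotransferase subunits Qrsl1, Gatb and Gatc. Of these 22 genes 2 were higher (9.09%) and 5 lower (22.7%; median -0.03), with Gars at -0.47. Gars and Kars encode the cytosolic enzymes as well. Of 29 assembly factors 9 were higher (31.0%) and 6 lower (20.7%; median 0.05), close to the background, with Mrm2 at 0.69 and Noa1 at 0.56. Of 15 genes that act on mitochondrial DNA or on its transcripts, 2 were higher (13.3%) and 5 lower (33.3%; median -0.19). Elac2, Lrpprc and Prorp, which act on transcripts, were among the lower, and Slirp, which does too, among the higher. Among them the mitochondrial single-stranded DNA-binding protein Ssbp1 stood at 0.53 and the mitochondrial RNA polymerase Polrmt at -0.79. Of 10 regulators of mitochondrial gene expression, 2 were higher and 3 lower (median -0.16), with the coactivators Pprc1 at -0.81 and Ppargc1a at 0.72.

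Respiratory chain subunits and cytosolic ribosomal proteins had overexpression medians near that of the members. The respiratory chain list here also takes in the genes of ATP synthase. Of 77 nuclear subunits of the respiratory chain 50 were higher in both overexpression libraries (64.9%, against 24.1% of all genes tested) and 0 lower (against 23.1%), with a median of 0.29. Of 84 cytosolic ribosomal proteins 54 were higher (64.3%) and 0 lower, with a median of 0.25. In the knockdown comparison their medians were 0.09 and 0.14 (log2), against 0.04 in the members. There 25 respiratory chain genes (32.5%) and 28 cytosolic ribosomal protein genes (33.3%) were higher in both libraries. The share was 12.8% in the members and 15.1% in all genes tested. Lower in both were 7 (9.09%) and 2 (2.38%), against 7.69% of the members and 14.1% of all genes. Of 16 proliferation genes 14 were higher in both overexpression libraries (87.5%; median 0.70). By library, their median against the shRNA control mean was 0.10 and 0.05 in the overexpression libraries and -0.77 and -0.46 in the vector libraries. In the knockdown libraries it was -0.05 and -0.90, whereas the members stood at 0.06 and 0.08 there. The part of proliferation in the members' overexpression ratios was not tested.

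**Figure D5:**
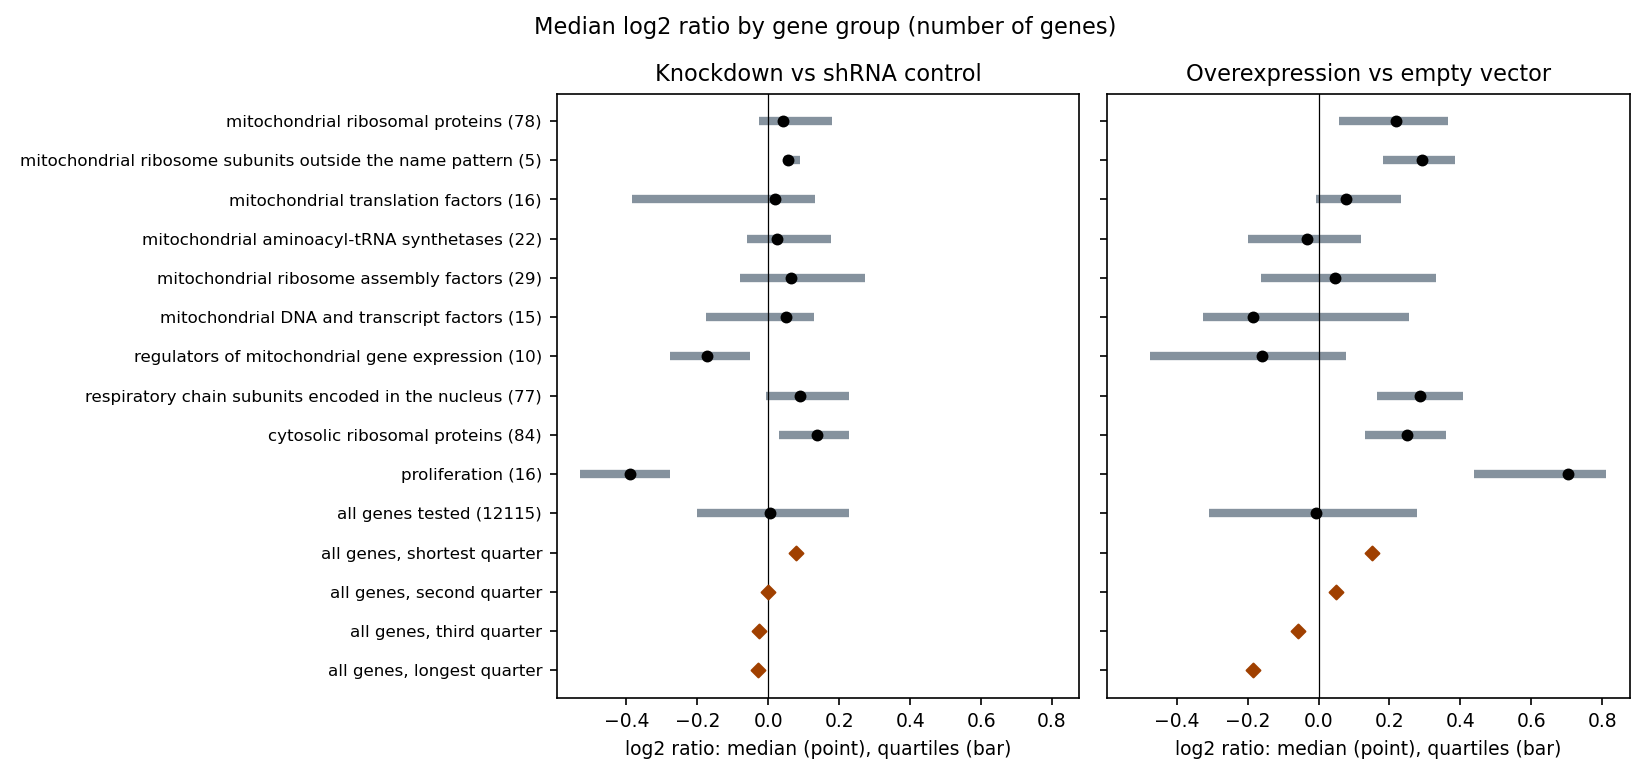
Median log2 ratio of the members and of each accompanying gene list in the overexpression and knockdown comparisons, with bars from the lower to the upper quartile and diamonds for all genes by length class. The members at 0.22 lie near the respiratory chain list at 0.29, which includes ATP synthase, and the cytosolic ribosomal proteins at 0.25. The list of aminoacyl-tRNA synthetases lies at -0.03.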

How the data were processed

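Per the labels' protocols, sequencing libraries came from TRIzol-extracted RNA and a stranded mRNA kit. Tools in the submitters' processing notes are HISAT2, HTSeq, Trimmomatic, Cufflinks and DESeq, with the build mm10 and no versions or order. The authors deposited whole-number counts per gene, with no normalization, and FPKM, which was used here only for levels per length. The sample titles count up from HT22 to HT25, but HT22 is the source of all. The role in each column's name gave its group; these names write the target as AK, not Ntoco.

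The counts of all 4 groups were fitted in 1 model with edgeR 4.0.16 (TMM scaling, filterByExpr with a minimum count of 10, quasi-likelihood F-test, 4 residual and 3.85 prior degrees of freedom, biological coefficient of variation 28%) in R 4.3.3. Benjamini-Hochberg adjustment ran over 12115 genes, with a threshold of 0.05. DESeq2 1.42.0 served as an alternative test. The fit was also run on simulated data with larger changes and a smaller spread than here. That run therefore says nothing about changes of the members' size. With 2 libraries against 2, the spread between libraries and not the depth sets the precision. CPM are scaled by TMM factors; log2 CPM adds 0.5. A member counts as higher or lower in both libraries where the groups' CPM do not overlap. Pseudogenes were searched with BLAST 2.17.0 among 13607 transcripts of GENCODE M21; promoters and gene coordinates are RefSeq, GRCm38.p6, 1 entry per member.

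The members, lists and tests were chosen with earlier results of these data known. Named members are those with the 8 smallest p-values in each comparison and the 5 in the difference of effects, the 5 highest and lowest by FPKM, the 4 widest in range, 8 with a role that needs a remark, and any count of 5 or fewer; of each mitochondrial translation list, the 2 genes with the smallest p in the overexpression comparison (those of the knockdown comparison and of the larger lists are not printed, and 1 gene is not reported here). Alternatives were other scalings, no filter on low counts, DESeq2, only the groups compared, each library left out, and a replicate block.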

Additional observations from a re-analysis of the deposited data

Results flagged for a closer look

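In 5 members the comparisons ran in opposite directions without overlap: both overexpression libraries were above both vector libraries, and both knockdown libraries below both shRNA controls. They were 6.41% of the members, against 3.63% of all genes tested, and the reverse pattern was seen in 0 members and 2.9% of all genes. Mrpl13, a large subunit protein with a bacterial counterpart, had 73.9 and 69.9 CPM in the overexpression libraries, against 51.8 and 55.1 in the vector libraries. It had 48.1 and 46.0 CPM in the knockdown libraries, against 56.1 and 50.2 in the shRNA controls, and the log2 difference of its effects was 0.60. The difference was 0.92 for Mrpl35, 0.68 for Mrpl37 and 0.74 for Mrps22. It was 0.38 for Mrps5, a small subunit protein with a bacterial counterpart, at 70.9 and 74.2 CPM in the overexpression libraries, against 60.0 and 66.9 in the vector libraries. The test of these differences in edgeR gave an adjusted p of 0.65 for the first 4 and 0.658 for Mrps5, so none passed. Opposite effects were log2 -0.18 with knockdown and 0.43 with overexpression for Mrpl13, -0.08 and 0.84 for Mrpl35, -0.23 and 0.44 for Mrpl37, -0.15 and 0.59 for Mrps22, and -0.18 and 0.19 for Mrps5.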

How the results depend on the processing

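In every alternative run, 0 members passed the adjusted test in any comparison, so no call was lost or turned. The knockdown and vector medians, near 0, changed sign without shRNA control library 2, and the vector median also without empty vector library 2 (-0.0126) and with upper-quartile scaling (-0.0362). The overexpression median was 0.26 with upper-quartile scaling, which put the median of all genes at 0.04, and 0 members were lower in both libraries with that scaling and 0 without the filter. Leaving out each library gave overexpression medians of 0.21 to 0.23, 54 to 58 members higher (all genes 33.2% to 41.2%) and 3 to 10 lower (32.0% to 40.1%). For knockdown it gave medians of -0.0458 to 0.157, 14 to 40 higher (all genes 26.1% to 38.5%) and 9 to 29 lower (26.9% to 39.3%). For the vector against the shRNA control it gave medians of -0.0757 to 0.117, 23 to 42 higher (all genes 34.6% to 39.6%) and 15 to 40 lower (37.2% to 41.2%). With 1 library in a group, groups overlap less easily, and the lone library is assumed to vary like the rest. The replicate block changed no call: 0 members passed, with medians of 0.22 for overexpression, 0.03 for knockdown and 0.01 for the vector. Whether library numbers pair the samples is not known. Deviations of same-numbered libraries correlated at -0.22 between overexpression and vector and 0.36 between knockdown and shRNA control. Between knockdown and vector they correlated at -0.37. With 2 libraries a group, each group gives a single deviation per gene, so these values cannot decide it. A block with the vector numbers crossed, chosen after seeing the data, called 0 members and 1 gene of all in the vector comparison. Counts over all genes moved more: the vector comparison called 281 genes with DESeq2 and 128 with its 2 groups alone, and overexpression 25 without overexpression library 2. Member differences are small beside a coefficient of variation of 28%, which is a value for all genes tested. Between the libraries of a group the median member differed less than the median gene. With 2 libraries a group, undetected changes of the members' size are still possible.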
